A study of Mus musculus with 8 samples.

Results

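The nuclear genes for the subunits of respiratory complexes II, III and IV and of the ATP synthase (complex V) were followed in late 2-cell mouse embryos after a Med13 morpholino. Members were symbols without a hyphen in the deposited FPKM table (fragments per length of transcript and per library total). They were exactly Sdha, Sdhb, Sdhc, Sdhd or Cyc1, or began with Uqcr, Cox4 to Cox8 or Atp5. All transcript rows of a symbol were summed. The rule found 48 of 34976 symbols, and 45 of them were among the 11755 genes that reached a mean of 1 FPKM over the 8 libraries and were tested. Cox6a2, Cox7a1 and Cox8b were below that level. The embryos were of the CF-1 stock, which is outbred. Both groups were injected at the early 1-cell stage and grown to the late 2-cell stage, 1 group with a scrambled control morpholino and the other with a morpholino against Med13, which belongs to the kinase module of the coactivator Mediator. Each library came from a pool of 40 embryos, and each group held 4 independent collections, so p-values measure the spread between collections. A morpholino is an antisense oligomer that blocks translation or splicing of its target RNA.

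Complex II oxidises succinate and passes its electrons to ubiquinone, complex III hands them on to cytochrome c, and complex IV transfers them to oxygen. The proton gradient that complexes III and IV help to build drives the rotary ATP synthase. Mitochondrial DNA encodes core membrane subunits of complexes III, IV and V, while complex II is entirely nuclear. Eggs and early cleavage embryos live on mitochondria inherited from the oocyte and oxidise pyruvate for energy.

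Library totals, read back from the values, were about 31378955 to 48050141 fragments. Med13 mRNA was at 41.3 ± 4.31 FPKM in scrambled controls and 42.2 ± 2.14 FPKM after Med13 morpholino (SD, n = 4 each; limma adjusted p = 0.892), and MED13 protein was not analysed here. All 14 oocyte and early embryo markers reached 1 FPKM, and their summed level was 666 to 812 FPKM in scrambled libraries and 1123 to 1243 FPKM in Med13 morpholino libraries. Dppa3 was the largest part of these sums and did not pass (557 and 536 FPKM, limma adjusted p = 0.802). Of the 14, 9 were higher after Med13 morpholino without overlap and 0 lower, where 21.6% of all genes tested did not overlap. Among the 9 were Tle6 (4.22 and 44.2 FPKM) and Oosp1 (38.9 and 189 FPKM). Of 14 cumulus and granulosa markers 1 reached 1 FPKM (Amhr2), of 9 sperm markers 1 (Ldhc), of 7 blood markers 2 and of 6 oviduct markers 2, and the summed ranges of these 4 lists overlapped between the groups. Single markers in them did not overlap. The oviduct marker Ovgp1 was lower after Med13 morpholino (3.49 and 2.18 FPKM, limma adjusted p = 0.044). Below 1 FPKM, Inhbb and Ptprc were lower and Ptx3 and Spata18 higher. The part of these cell types in the results below was not tested. Each value is a share of the RNA of whole embryos, so fewer cells with an RNA and less of it per cell cannot be told apart.

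Most subunit RNAs did not pass the test. By limma on log2(FPKM + 1), with Benjamini-Hochberg adjustment over all 11755 genes, 3 of the 45 members tested rose and 1 fell. The risers were the complex IV subunit Cox7b and the testis-type paralogs Cox8c and Cox6b2, and the member that fell was Uqcrfs1, the Rieske iron-sulfur protein of complex III. Cox8c averaged 0.626 FPKM in controls and reached the filter of 1 FPKM only through its Med13 morpholino libraries, so it could enter the test only by differing. Conversely, Cox7a1 averaged 1.43 FPKM in controls and missed the filter through its Med13 morpholino libraries (0.524 FPKM). It did not overlap between the groups and is in none of the counts given here. The 4 calls are 8.89% of the members, where 17.1% of all genes tested were called, 9.29% as higher and 7.81% as lower. Groups did not overlap in 3 of 45 members (6.67%), against 21.6% of all genes tested. The median log2 fold change of the members was -0.10, with 28 values below 0 and 17 above it, and that of all genes tested was -0.06. For 41 of 45 members the 95% interval lay inside a 2-fold change in either direction on the log2(FPKM + 1) scale. The same held for 9613 of 11755 genes tested, and this scale understates changes of low genes. The calls of Cox6b2 and Uqcrfs1 were lost in most fits that left out 1 library, as given beside their values.

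**Figure D1:**
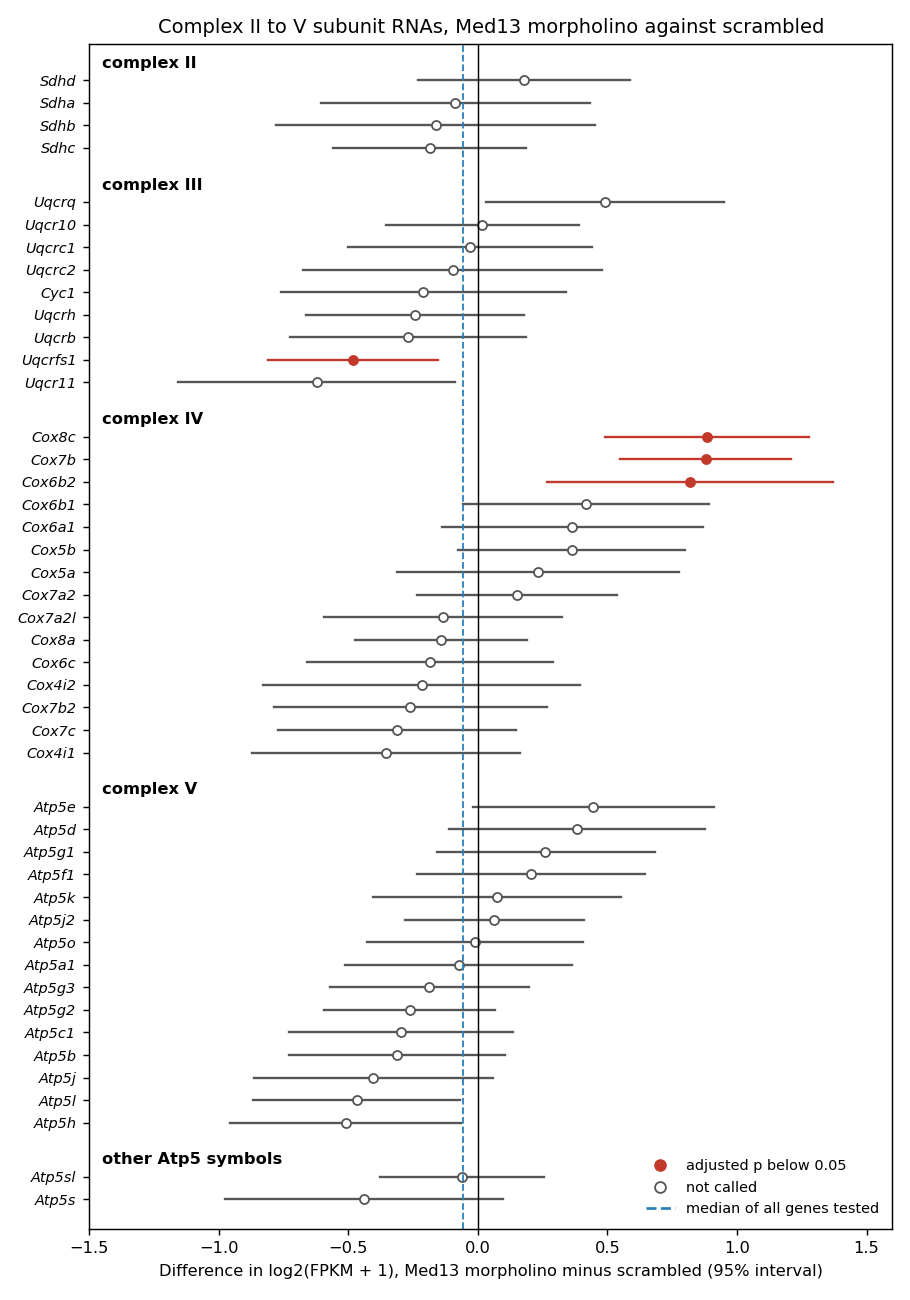
Difference in log2(FPKM + 1), Med13 morpholino minus scrambled, for the 45 subunit genes tested, with the 95% interval from limma, grouped by complex. Filled points are the 4 genes with an adjusted p below 0.05, Cox7b, Cox8c and Cox6b2 above 0 and Uqcrfs1 below it, and the dashed line marks the median of all genes tested (-0.06).

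Promoters of nuclear respiratory genes are known for sites of the factors NRF1, GABPA (an ETS factor) and YY1. The windows from 250 bases before to 50 bases after the start were taken from RefSeq (GRCm38.p6) for the called members with an entry and, for contrast, for a complex IV and a complex V member that hold searched motifs. Cox7b lies at chrX:106015450-106015749, plus strand, Cox6b2 at chr7:4753045-4753344, minus strand, Uqcrfs1 at chr13:30545267-30545566, minus strand, Cox6a1 at chr5:115348909-115349208, minus strand, and Atp5j at chr16:84834927-84835226, minus strand. Capitals mark matches, searched on both strands. The NRF1 letters are the 2 longer runs in Cox6a1, where any base is allowed at position 6, the ETS letters are CCGGAAG, and the YY1 letters are the first run in Atp5j.
Cox7b: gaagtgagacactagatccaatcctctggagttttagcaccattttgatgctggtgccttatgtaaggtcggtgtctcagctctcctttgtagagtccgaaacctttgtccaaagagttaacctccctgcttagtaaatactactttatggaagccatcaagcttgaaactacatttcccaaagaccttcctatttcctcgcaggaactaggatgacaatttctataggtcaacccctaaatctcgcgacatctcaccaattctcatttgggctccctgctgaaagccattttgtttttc
Cox6b2: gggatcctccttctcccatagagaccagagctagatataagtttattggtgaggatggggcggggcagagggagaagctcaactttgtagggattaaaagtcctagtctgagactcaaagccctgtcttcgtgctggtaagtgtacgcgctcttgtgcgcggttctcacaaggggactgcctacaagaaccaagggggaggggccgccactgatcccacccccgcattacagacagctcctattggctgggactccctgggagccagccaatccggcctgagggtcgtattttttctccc
Uqcrfs1: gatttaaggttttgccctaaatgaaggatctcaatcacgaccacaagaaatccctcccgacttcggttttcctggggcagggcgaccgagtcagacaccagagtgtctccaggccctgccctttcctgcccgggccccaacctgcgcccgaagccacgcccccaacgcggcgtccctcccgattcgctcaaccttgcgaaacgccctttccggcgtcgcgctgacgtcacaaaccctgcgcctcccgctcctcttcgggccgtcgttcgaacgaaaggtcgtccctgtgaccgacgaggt
Cox6a1: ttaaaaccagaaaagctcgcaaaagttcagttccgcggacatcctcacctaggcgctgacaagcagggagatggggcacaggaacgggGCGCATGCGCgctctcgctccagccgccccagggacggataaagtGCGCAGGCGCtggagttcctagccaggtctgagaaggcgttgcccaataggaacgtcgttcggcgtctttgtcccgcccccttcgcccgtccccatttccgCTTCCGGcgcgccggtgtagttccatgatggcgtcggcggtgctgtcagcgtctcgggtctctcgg
Atp5j: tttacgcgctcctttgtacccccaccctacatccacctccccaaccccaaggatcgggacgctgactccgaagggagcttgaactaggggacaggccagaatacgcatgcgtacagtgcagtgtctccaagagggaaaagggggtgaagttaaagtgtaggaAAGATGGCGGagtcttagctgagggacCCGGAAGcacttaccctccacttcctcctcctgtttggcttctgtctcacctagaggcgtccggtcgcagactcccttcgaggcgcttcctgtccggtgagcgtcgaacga
The windows of Cox7b, Cox6b2 and Uqcrfs1 held none of the searched letters. The same was true of members that were not called, among them Atp5b and Cox5a. Cox6a1 and Atp5j were chosen because they hold motifs, so their contrast with the called members follows from that choice. The Cox6a1 window held 2 NRF1 matches and 1 ETS match on the opposite strand, and the Atp5j window held 1 YY1 and 1 ETS match, with no overlap between them. Among the windows of 27025 genes, 5.19% held the NRF1 letters, 9.93% the ETS letters and 0.995% the YY1 letters. Entries were matched for 37 of 48 members, under the 80% needed for a comparison of the set with other genes, so none is given. The members without an entry were Atp5a1, Cox4i1, Cox4i2, Cox6a2, Cox6c, Cox8c, Cyc1, Sdhc, Uqcrb, Uqcrc2 and Uqcrq.

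None of the 4 complex II genes passed the test. Sdhd, a membrane anchor that helps to bind ubiquinone, was at 8.42, 8.43, 5.92 and 5.17 FPKM in scrambled replicates 1 to 4 and at 6.17, 8.60, 7.68 and 9.42 FPKM in Med13 morpholino replicates 1 to 4. The groups overlapped, and the log2 fold change was 0.18 ± 0.19 SE (limma adjusted p = 0.543). Sdha, the flavoprotein that oxidises succinate, was at 3.53, 1.33, 3.73 and 1.34 FPKM in scrambled libraries and at 1.72, 2.43, 2.28 and 2.01 FPKM after Med13 morpholino, with the lowest and the highest values both among the controls. Its log2 fold change of -0.09 ± 0.24 SE (adjusted p = 0.83) changed sign in 4 of 16 alternatives. The iron-sulfur subunit Sdhb and the anchor Sdhc had means of 2.00 and 1.86 FPKM in controls and 1.72 and 1.49 FPKM after Med13 morpholino, also overlapping. On the log2(FPKM + 1) scale the 95% intervals of all 4 genes lay inside a 2-fold change. This scale understates changes of low genes, so it does not bound the change in FPKM of Sdha, Sdhb and Sdhc.

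Of 9 complex III genes, 1 fell. Uqcrfs1 (chromosome 13, 30540308 to 30545362, minus strand, GRCm38), whose iron-sulfur cluster takes electrons from ubiquinol, was at 13.2, 16.4, 16.9 and 13.2 FPKM in scrambled libraries and at 9.61, 11.1, 9.45 and 11.3 FPKM after Med13 morpholino. All 4 Med13 morpholino values lay below the lowest control. The log2 fold change was -0.48 ± 0.15 SE (limma adjusted p = 0.0461), from 404 to 1104 fragments per library on its 1 transcript model. The call was lost in 10 of 17 alternatives, with the fold change between -0.55 and -0.42 throughout. They were median-ratio scaling (adjusted p = 0.0644), quantile normalization (0.0521), no filter on low values (0.0859) and every fit that left out 1 library except Med13 morpholino replicate 4, with values up to 0.142 without scrambled replicate 3.

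The other 8 complex III genes did not pass the test. Uqcrq, a small membrane subunit, was at 17.4, 24.8, 19.8 and 18.9 FPKM in controls and at 18.1, 33.8, 32.2 and 34.0 FPKM after Med13 morpholino. The first Med13 morpholino library lay among the controls and the other 3 above all of them. The log2 fold change was 0.49 ± 0.21 SE (limma adjusted p = 0.128), and without Med13 morpholino replicate 1 it was 0.70 and passed (adjusted p = 0.019). Uqcr10, the most abundant member of the complex, was at 44.5 ± 3.39 and 45.6 ± 8.70 FPKM (SD, n = 4 each; log2 fold change 0.02, adjusted p = 0.955), a difference that turned negative in 6 of 17 alternatives. Uqcr11, named after its value was seen, was at 4.01, 4.56, 3.504 and 5.84 FPKM in controls and at 1.64, 2.73, 1.64 and 4.91 FPKM after Med13 morpholino, where 3 libraries lay below all controls and replicate 4 among them. Its log2 fold change was -0.62 ± 0.25 SE (adjusted p = 0.102), and -0.87 without Med13 morpholino replicate 4 (adjusted p = 0.0114). Cytochrome c1 (Cyc1), the core proteins Uqcrc1 and Uqcrc2, the hinge protein Uqcrh and Uqcrb overlapped between the groups and had adjusted p-values from 0.397 to 0.937.

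Complex IV held the 3 members that rose, among 15 tested (20%, where 9.29% of all genes tested were called higher), and Cox8c was among those tested only through its Med13 morpholino libraries. Cox7b (chromosome X, 106015700 to 106022450, plus strand), a small subunit of the inner membrane part of the enzyme, was at 10.97, 12.5, 10.5 and 9.05 FPKM in scrambled libraries and at 20.2, 22.3, 21.4 and 18.2 FPKM after Med13 morpholino. The lowest Med13 morpholino library lay well above the highest control. The log2 fold change was 0.88 ± 0.15 SE, a 1.84-fold difference on the log2(FPKM + 1) scale (limma adjusted p = 0.00295). Cox7b was called in all 17 alternatives, with adjusted p-values of at most 0.0165. Its protein-coding model of 1001 bases went from 4.92 ± 0.466 to 9.31 ± 0.703 FPKM (SD, n = 4 each), from 146 to 403 fragments per library. The retained-intron model (3.97 ± 0.717 and 7.29 ± 0.770 FPKM) and the short processed transcript (1.87 ± 0.530 and 3.96 ± 1.02 FPKM) were also separate between the groups. The models share exons and are not independent measurements.

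Cox8c (chromosome 12, 102899316 to 102900526, plus strand), the testis-type form of subunit VIII, was at 0.920, 0.147, 0.656 and 0.783 FPKM in controls and at 1.45, 2.41, 1.77 and 2.25 FPKM after Med13 morpholino, without overlap. The log2 fold change was 0.88 ± 0.18 SE (limma adjusted p = 0.00745). Its mean was 0.626 FPKM in controls and 1.97 FPKM after Med13 morpholino, so it passed the filter of 1 FPKM only through the group where it is high, and its call is no independent support. With no filter the adjusted p was 0.04, and with a pseudocount of 0.1 the log2 fold change was 1.67. The level was low in both groups, at 16, 3, 14 and 12 fragments in controls and 25, 44, 25 and 47 after Med13 morpholino. Cox6b2 (chromosome 7, 4751792 to 4753094, minus strand), the testis-type form of subunit VIb, was at 4.09, 2.11, 3.38 and 1.77 FPKM in controls and at 5.91, 3.16, 5.96 and 8.28 FPKM after Med13 morpholino. Med13 morpholino replicate 2 lay among the controls and the other 3 above them. The log2 fold change was 0.82 ± 0.25 SE (adjusted p = 0.0433). The call was lost in 9 of 15 alternatives, among them no filter (adjusted p = 0.15), sample weights (0.102), length and GC trends removed (0.0547) and 6 of 8 fits that left out 1 library. It held without scrambled replicate 1 (0.0346) or Med13 morpholino replicate 2 (0.0225), and reached 0.11 without scrambled replicate 4. The value sums 9 transcript models, and the most abundant one had 2 to 30 fragments per library.

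Since Cox8c and Cox6b2 are known from testis, sperm markers are given beside them. Of 9 spermatid markers in the table, Ldhc alone averaged 1 FPKM or more, and the summed list was at 1.46 to 5.06 FPKM in controls and 2.94 to 4.27 FPKM after Med13 morpholino. Of the 9, 4 had a higher mean after Med13 morpholino, Ldhc (2.84 and 3.22 FPKM), Gapdhs, Pgk2 and Spata18. Spata18 did not overlap, at 0 to 0.0134 FPKM in controls and 0.0352 to 0.0557 FPKM after Med13 morpholino. The protamine genes Prm1 and Prm2 had higher means in controls and reached at most 0.226 and 0.347 FPKM. The part of sperm RNA in the Cox8c and Cox6b2 results was not tested.

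The remaining tissue-restricted forms were low. Cox7a1, the heart and muscle form of subunit VIIa, averaged below 1 FPKM over the 8 libraries and was not tested with the main filter. Its mean was 1.43 FPKM in controls and 0.524 FPKM after Med13 morpholino, so it missed the filter only through the group where it is low. It was at 0.948, 1.57, 1.74 and 1.47 FPKM in controls and at 0.436, 0.618, 0.263 and 0.781 FPKM after Med13 morpholino, so that the groups did not overlap, from 3 to 33 fragments per library. In a fit with no filter the limma adjusted p was 0.0541. Cox7b2, the testis-type partner of Cox7b, was at 1.23, 2.77, 0.909 and 0.413 FPKM in controls and at 0.659, 0.668, 1.11 and 0.887 FPKM after Med13 morpholino (log2 fold change -0.26 ± 0.24 SE, adjusted p = 0.487). The highest and the lowest Cox7b2 values were both in controls, and without scrambled replicate 2 the log2 fold change was 0.00. Cox4i2, the form of subunit IV found in lung, was at 0.429 to 3.31 FPKM in controls and 0.743 to 1.83 FPKM after Med13 morpholino (adjusted p = 0.634). The muscle forms Cox6a2 and Cox8b were nearly silent. Cox6a2 was at 0.0177 to 0.363 FPKM in controls and 0.262 to 0.731 FPKM after Med13 morpholino (adjusted p = 0.198 with no filter), and Cox8b was listed at 0 in every library except scrambled replicate 3, where 1 fragment gave 0.0575 FPKM.

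The ubiquitous forms of complex IV did not pass the test. Cox5a, which binds the matrix side of the catalytic core, was at 40.6, 32.3, 60.04 and 56.1 FPKM in controls and at 36.1, 58.5, 51.5 and 78.4 FPKM after Med13 morpholino. The ranges overlapped, with replicate 4 of the Med13 morpholino group on top (log2 fold change 0.23 ± 0.25 SE, limma adjusted p = 0.554). Cox7c was at 62.6, 86.8, 58.3 and 53.3 FPKM in controls and at 35.5, 57.5, 54.8 and 62.7 FPKM after Med13 morpholino (-0.31 ± 0.21 SE, adjusted p = 0.327), and a near-identical copy, Gm10012, averages 8.64 FPKM in the table. Cox4i1, the main form of subunit IV, was at 36.9, 43.5, 60.3 and 51.8 FPKM in controls and at 24.3, 41.1, 33.3 and 55.0 FPKM after Med13 morpholino (-0.35 ± 0.24 SE, adjusted p = 0.326). In both genes the first Med13 morpholino library was the lowest of all 8. Cox5b, which holds a zinc ion, was at 15.9 ± 1.68 and 21.3 ± 5.84 FPKM (SD, n = 4 each; 0.36 ± 0.20 SE, adjusted p = 0.235, and 0.0442 without Med13 morpholino replicate 1). Cox6c, a small membrane subunit, was at 14.3 ± 4.63 and 12.3 ± 2.57 FPKM (adjusted p = 0.598). Cox6a1 (0.37, adjusted p = 0.297), Cox6b1 (0.42, 0.207) and Cox7a2 (0.15, 0.594) had log2 fold changes above 0 in all alternatives tried. Cox8a (-0.14, adjusted p = 0.552) stayed below 0 in all of them, and Cox7a2l, a factor of respiratory supercomplexes (-0.13, 0.70), turned to 0.05 without Med13 morpholino replicate 1.

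Shares within a paralog pair compare 2 RNAs of the same library and were taken from the most abundant transcript model of each gene, whose FPKM is per length. They are given as a description, with no test. Cox8c made up 0.459% to 2.67% of Cox8c plus Cox8a in controls and 4.77% to 7.24% after Med13 morpholino. Cox7a1 made up 5.81% to 9.14% of Cox7a1 plus Cox7a2 in controls and 1.396% to 3.17% after Med13 morpholino. These 2 pairs were separate between the groups and went opposite ways, 1.69% ± 0.919 to 5.76% ± 1.14 for Cox8c and 7.82% ± 1.503 to 2.66% ± 0.850 for Cox7a1 (SD, n = 4 each). Cox7b2 made up 10.1% ± 6.32 of its pair with Cox7b in controls and 4.38% ± 0.595 after Med13 morpholino, with a control range of 4.24% to 18.9% that included 2 of the 4 values of the other group. For Cox4i2 (6.72% ± 4.16 and 6.88% ± 1.64), Cox6b2 (3.66% ± 2.51 and 5.02% ± 1.97) and Cox6a2 (0.772% ± 0.939 and 1.65% ± 0.283) the shares overlapped. The size of a share depends on how many models each gene has. Cox6b2 averaged 0.831 FPKM in its most abundant model and 4.33 FPKM summed over 9 models, while Cox6b1 has 1 model. The Cox6b2 share may therefore be understated. In every pair the ubiquitous form was the more abundant RNA in all 8 libraries.

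**Figure D2:**
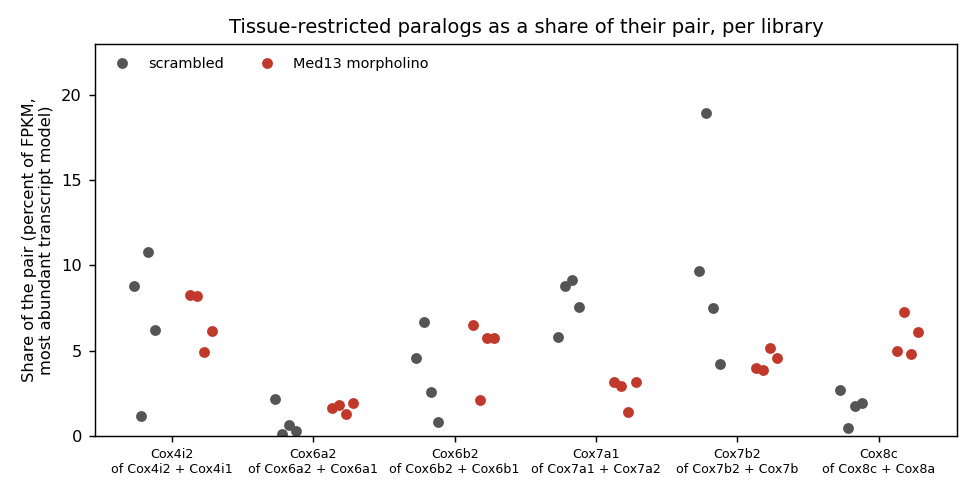
Share of the tissue-restricted form in each paralog pair of complex IV, as percent of the summed FPKM of the most abundant transcript model of each gene, 1 point per library (4 scrambled, 4 Med13 morpholino). The groups are apart for Cox8c (0.459% to 2.67% against 4.77% to 7.24%) and, in the other direction, for Cox7a1 (5.81% to 9.14% against 1.396% to 3.17%).

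None of the 15 ATP synthase genes passed the test, and all 15 had 95% intervals inside a 2-fold change on the log2(FPKM + 1) scale. Their median log2 fold change was -0.07, with 9 values below 0 and 6 above. In the catalytic F1 head, Atp5b, the beta subunit that carries the catalytic sites, was the most abundant of all members, at 302, 225, 389 and 354 FPKM in controls and 220, 234, 269 and 284 FPKM after Med13 morpholino, summed over 9 models. The groups overlapped through scrambled replicate 2, the lowest control (log2 fold change -0.31 ± 0.19 SE; limma gave an adjusted p of 0.281, and of 0.0176 with sample weights). Its protein-coding model of 1916 bases was at 72.6 ± 12.3 and 59.7 ± 6.19 FPKM (SD, n = 4 each). The alpha subunit Atp5a1 was at 44.1 ± 3.74 and 43.2 ± 13.5 FPKM, and the gamma shaft Atp5c1 at 30.8 ± 4.85 and 25.3 ± 6.56 FPKM. The small shaft subunits Atp5d and Atp5e were at 5.80 ± 1.95 and 6.26 ± 1.89 FPKM in controls and at 7.74 ± 1.83 and 8.85 ± 2.27 FPKM after Med13 morpholino (SD, n = 4 each), with overlap.

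The c subunit, whose ring turns in the membrane, is encoded by 3 genes for 1 mature protein. Atp5g1 was at 75.1, 73.4, 90.6 and 97.7 FPKM in controls and at 75.1, 105, 95.3 and 135 FPKM after Med13 morpholino (log2 fold change 0.26 ± 0.19 SE, limma adjusted p = 0.371). Atp5g2 (-0.26 ± 0.15 SE, adjusted p = 0.255) and Atp5g3 (-0.19 ± 0.18 SE, adjusted p = 0.493) were at 4.51 ± 0.749 and 16.5 ± 1.38 FPKM in controls and at 3.57 ± 0.401 and 14.6 ± 3.11 FPKM after Med13 morpholino (SD, n = 4 each). By most abundant model, Atp5g1 supplied 80.2% to 83.4% of c-subunit RNA in controls and 84.8% to 88.8% after Med13 morpholino, without overlap. The share was not tested, and groups did not overlap in 21.6% of all genes tested. Atp5g3 supplied 12.9% ± 1.67 and 9.72% ± 1.69, with overlap. Gm10039, a near-identical copy of Atp5g1, averages 37.4 FPKM in the table, so reads may be divided between them and the Atp5g1 level is uncertain. Atp5g2 has the near-identical copies Gm10175 and Gm10231, with a summed mean of 3.11 FPKM. The shares of the c-subunit genes are therefore uncertain too.

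Among the peripheral stalk and the remaining Fo genes, the 3 lowest fold changes were those of Atp5h, Atp5l and Atp5j, named after their values were seen. Atp5h, stalk subunit d, was at 18.0, 16.3, 26.8 and 26.5 FPKM in controls and at 11.1, 14.9, 15.4 and 18.4 FPKM after Med13 morpholino (log2 fold change -0.51 ± 0.21 SE, limma adjusted p = 0.106). Only Med13 morpholino replicate 4 reached into the control range. Without scrambled replicate 2 the adjusted p was 0.0464, and 2 further alternatives called it. Atp5l, subunit g, was at 22.0, 21.4, 19.5 and 13.6 FPKM in controls and at 10.9, 13.1, 16.1 and 13.7 FPKM after Med13 morpholino (-0.47 ± 0.18 SE, adjusted p = 0.0993, and 0.0434 without scrambled replicate 4). It has 9 near-identical copies in the annotation, of which 3 are in the table with a summed mean of 7.14 FPKM. Coupling factor 6 (Atp5j) was at 18.5, 19.2, 30.1 and 30.7 FPKM in controls and at 13.1, 20.4, 18.6 and 20.5 FPKM after Med13 morpholino (-0.40 ± 0.21 SE, adjusted p = 0.21). In Atp5h and Atp5j, scrambled replicates 3 and 4 were high and replicates 1 and 2 lay near the other group. The subunits b (Atp5f1), OSCP (Atp5o), e (Atp5k) and f (Atp5j2) overlapped between groups, with adjusted p-values from 0.512 to 0.975. The remaining Atp5 symbols are not subunits of the enzyme core. Atp5s, coupling factor B, was at 2.67 ± 1.14 and 1.65 ± 0.604 FPKM (adjusted p = 0.239, and 0.0347 without scrambled replicate 2), and Atp5sl, renamed Dmac2 and tied to complex I assembly, at 1.44 ± 0.364 and 1.33 ± 0.177 FPKM (SD, n = 4 each; adjusted p = 0.802).

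**Figure D3:**
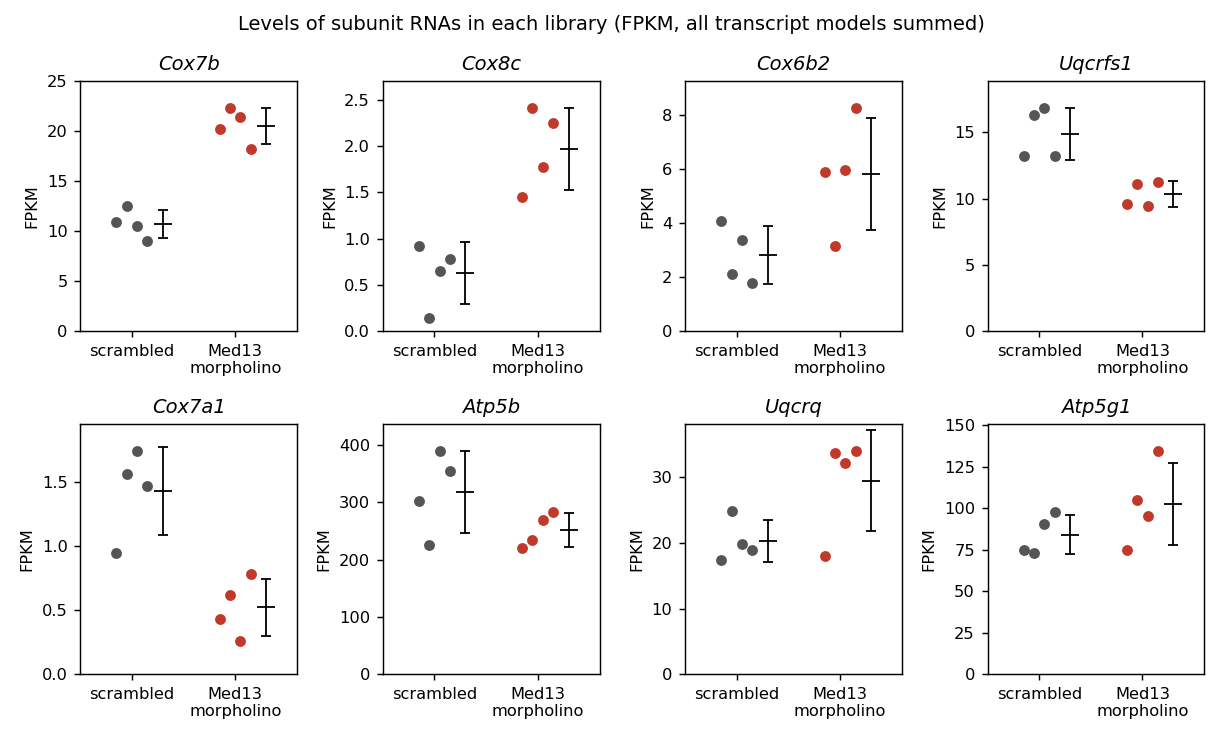
FPKM of 8 subunit genes in each library, with all transcript models summed; points are libraries, and the bar and whiskers beside them are the mean and SD of 4. Cox7b (9.05 to 12.5 against 18.2 to 22.3 FPKM), Cox8c, Uqcrfs1 and the untested Cox7a1 do not overlap between the groups, while Cox6b2, Atp5b, Uqcrq and Atp5g1 do.

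Subunit RNAs differed in level between complexes. By the most abundant transcript model, per length, the median level was 1.20 FPKM for the 4 complex II genes, 3.68 FPKM for the 9 of complex III, 7.65 FPKM for the 15 of complex IV and 7.39 FPKM for the 15 of complex V, against 2.55 FPKM for all genes tested. The highest of each complex were Atp5b at 68.1 FPKM, Cox5a at 51.7 FPKM, Uqcr10 at 30.8 FPKM and Sdhd at 7.47 FPKM. The lowest were Cox7b2 at 0.513 FPKM, Sdhc at 0.899 FPKM, Uqcrc1 at 2.09 FPKM and Atp5d at 2.69 FPKM. These levels depend on how many models each gene has. The most abundant models of Atp5b and of Atp5f1, the latter at the complex V median, are not labelled protein-coding. Complex II had the lowest median, and also with all models summed (2.08 FPKM, against 6.56, 17.9 and 18.8 FPKM for complexes III, IV and V).

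The mean level of the subunit RNAs varied between libraries, and the 2 extreme libraries were in the same group. The mean deviation of the 45 members from their 8-library means, on the log2(FPKM + 1) scale, was 0.03, -0.13, 0.11 and 0.03 in scrambled replicates 1 to 4 and -0.35, 0.04, -0.01 and 0.29 in Med13 morpholino replicates 1 to 4. Over all genes tested the values were 0.005, -0.124, 0.064 and 0.075 in the scrambled and -0.084, -0.026, 0.015 and 0.075 in the Med13 morpholino libraries. The scrambled libraries thus sat close to the all-gene values, while Med13 morpholino replicates 1 and 4 lay further out than all genes did. Replicate 1 was the lowest of its group in 35 of 45 members (77.8%, against 41.9% of all genes tested), and replicate 4 the highest in 31 of 45 (68.9%, against 44.4%). All 4 complexes shared this order, from -0.44 for complex III to -0.28 for complexes II and IV in replicate 1, and from 0.21 for complex III to 0.39 for complex IV in replicate 4. Their library totals were about 37775835 and 45748778 fragments, within the range of the others. Without replicate 1 the calls were 4 higher (Cox7b, Cox8c, Uqcrq and Cox5b) and 0 lower, with a median log2 fold change of -0.02. Without replicate 4 they were 2 higher (Cox7b and Cox8c) and 2 lower (Uqcrfs1 and Uqcr11), with a median of -0.185.

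**Figure D4:**
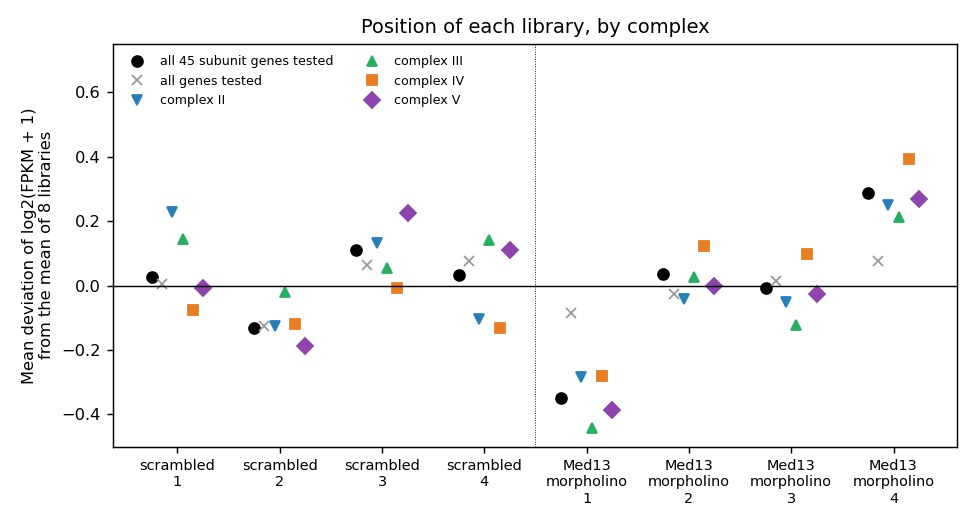
Mean deviation of log2(FPKM + 1) from the mean of 8 libraries, for the 45 subunit genes tested, for each complex and for all genes tested, in each library. Med13 morpholino replicate 1 is the lowest (-0.35 for the 45 genes) and replicate 4 the highest (0.29), and all 4 complexes share that order.

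Among the assembly factors the largest difference was that of Cox10. Cox10, which makes the heme precursor of complex IV by farnesylating heme, was at 4.86, 4.44, 4.47 and 4.79 FPKM in controls and at 15.8, 10.5, 10.3 and 17.6 FPKM after Med13 morpholino. The controls were tight and every Med13 morpholino library exceeded them by a wide gap. The log2 fold change was 1.33 ± 0.18 SE (limma adjusted p = 0.000844), called in all 17 alternatives. Its protein-coding model went from 3.59 ± 0.378 to 10.9 ± 2.97 FPKM (SD, n = 4 each). Of 22 complex IV assembly genes tested, Cox10 rose and 2 fell (13.6% called, against 17.1% of all genes tested). Cox20, a chaperone of the subunit COX2, was at 1.67, 2.88, 1.597 and 1.697 FPKM in controls and at 0.918, 0.975, 1.304 and 0.881 FPKM after Med13 morpholino (-0.54 ± 0.16 SE, adjusted p = 0.0381). Coa6, which helps to deliver copper, was at 2.02, 4.24, 2.58 and 2.80 FPKM in controls and at 1.22, 1.21, 2.01 and 1.76 FPKM after Med13 morpholino (-0.60 ± 0.19 SE, adjusted p = 0.044). In both, scrambled replicate 2 was the highest library and the groups did not overlap. Both calls were lost in 10 alternatives, 7 of them fits that left out 1 library. For Cox20 the call held without scrambled replicate 2 (0.0489), and its adjusted p reached 0.0984 without Med13 morpholino replicate 2. For Coa6 it held without scrambled replicate 1 (0.0325) and reached 0.13 without Med13 morpholino replicate 2.

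Of 6 assembly and regulatory genes of the ATP synthase tested, 1 fell (16.7%, near the 17.1% called among all genes tested). It was Tmem70, which helps the c-ring to form. Tmem70 was at 8.40, 10.6, 9.37 and 10.6 FPKM in controls and at 4.08, 4.96, 4.35 and 6.45 FPKM after Med13 morpholino. The highest Med13 morpholino library lay below the lowest control, and the log2 fold change was -0.86 ± 0.16 SE (limma adjusted p = 0.00514, called in all 17 alternatives). A mixed list held 7 tested genes: Cycs for cytochrome c, Hccs, the carriers Slc25a3, Slc25a4, Slc25a5 and Slc25a31, and Ndufa4. Of these, 1 fell (14.3%), Hccs, the lyase that attaches heme to cytochrome c and c1. It was at 26.1, 32.3, 22.7 and 21.2 FPKM in controls and at 17.6, 15.8, 15.2 and 12.7 FPKM after Med13 morpholino, without overlap. Its log2 fold change was -0.70 ± 0.17 SE (adjusted p = 0.0177), lost with median-ratio scaling (0.0527), no filter (0.0544) and without Med13 morpholino replicate 2 (0.051). None of 4 complex III assembly genes tested passed, among them Uqcc3 (log2 fold change 0.21, adjusted p = 0.485) and Uqcc1 (-0.08, 0.836), the most abundant ones. All 4 complex II assembly factors in the table, Sdhaf1 to Sdhaf4, were below 1 FPKM on average and were not tested.

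Of 13 regulators of nuclear respiratory genes tested, 2 fell and none rose (15.4% called, near the 17.1% of all genes tested). Yy1, a zinc finger factor, was at 65.8, 111, 45.6 and 32.3 FPKM in controls and at 28.5, 23.3, 23.1 and 21.6 FPKM after Med13 morpholino. The controls were widely spread, and all 4 Med13 morpholino libraries lay below the lowest of them (log2 fold change -1.22 ± 0.30 SE, limma adjusted p = 0.0164, lost with no filter, 0.0813). Tfam, which packages and transcribes mitochondrial DNA, was at 2.70, 1.96, 2.51 and 1.78 FPKM in controls and at 0.524, 0.984, 1.29 and 1.57 FPKM after Med13 morpholino, without overlap. Its log2 fold change was -0.65 ± 0.18 SE (adjusted p = 0.0283). Fits without scrambled replicate 1 (0.0719) or 3 (0.0738), without Med13 morpholino replicate 1 (0.079) or 2 (0.0794), or with no filter (0.095) lost the call, and with a pseudocount of 0.1 the log2 fold change was -1.04. Nrf1 and Gabpa, named after their values were seen because their motifs were searched, did not pass. Nrf1 was at 27.3 ± 4.42 and 22.9 ± 6.79 FPKM (SD, n = 4 each; adjusted p = 0.386). Gabpa was at 85.4, 84.3, 105 and 99.3 FPKM in controls and at 65.1, 68.2, 72.9 and 81.4 FPKM after Med13 morpholino, without overlap (log2 fold change -0.38, adjusted p = 0.111, and 0.00949 with sample weights). Gabpa overlaps Atp5j on the opposite strand over 12.7% of the exonic bases of Atp5j, and a strand setting for the counting is not given in the sources available.

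**Figure D5:**
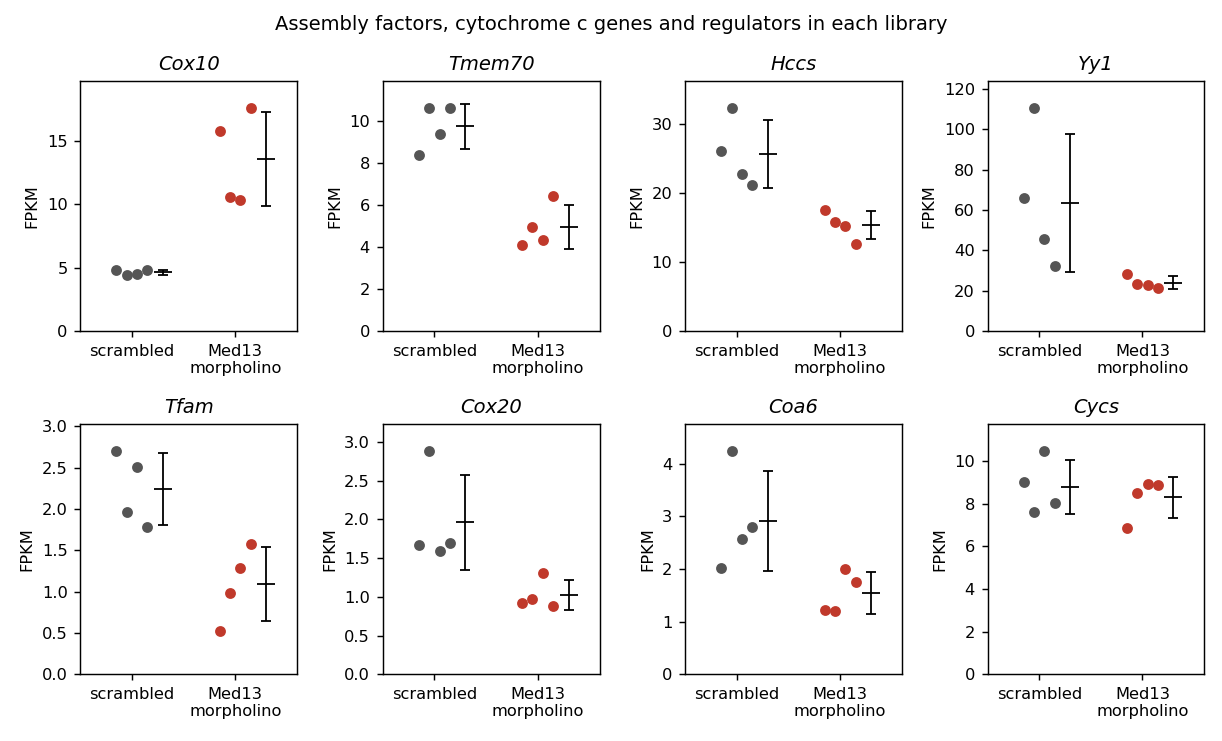
FPKM of 8 genes that assemble or regulate the complexes, in each library; points are libraries, and the bar and whiskers are the mean and SD of 4. Cox10 (4.44 to 4.86 against 10.3 to 17.6 FPKM) is higher after Med13 morpholino without overlap, Tmem70, Hccs, Yy1, Tfam, Cox20 and Coa6 are lower without overlap, and cytochrome c (Cycs) overlaps.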

How the data were processed

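The deposited table holds FPKM values per Ensembl transcript (97496 rows) for 8 libraries. Per the labels' protocols, TruSeq libraries were made from 400 ng of cDNA after Ovation V2 amplification. Per the submitters' processing notes, BWA and mm10 were used. Of the counting tool, annotation and strand setting nothing is given in the sources available. Fragments of shared exons may enter a summed value more than once. The 3758 rows whose symbol holds a hyphen have values moved by 1 column and were left out, among them all mitochondrially encoded genes and 4 symbols of pseudogenes that match the rule (Atp5k-ps2, Atp5l-ps1, Atp5l-ps2 and Atp5l2-ps). Columns were matched to samples by title, with 0 columns unmatched, and replicates were numbered in accession order. Of the 93738 rows used, 98.7% matched GENCODE M21 (GRCm38), and 187 belong to members.

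Genes with a mean of at least 1 FPKM entered limma 3.58.1 (R 4.3.3) on the log2(FPKM + 1) scale (mean-variance trend, two-sided, no covariate, called at a Benjamini-Hochberg adjusted p below 0.05). This scale understates changes of low genes. Low values times length came out as multiples of 1 step per library (94.3% to 94.4% of them). That step was assumed to be 0.5 fragments, which gave the library totals. With a step of 1 fragment, totals and fragment numbers would be higher. Fragment numbers are rounded, and the reads carry no molecular identifiers. Copies were transcripts with at least 95% identity over 50% of the most abundant model of a member (blastn 2.17.0): 10 members have one. No member shares over 20% of its exonic bases with a neighbour. The limma fit was tested on simulated data with independent noise per gene, without shifts of whole libraries. The other steps were not tested in this way. Members, lists, motifs and tests were chosen with earlier results of these data known. Named were called members, the 2 most abundant of each complex, the paralog sets, members below the filter, and in other lists the called genes or, with none, the 2 most abundant; exceptions are marked in the text. Alternatives changed the pseudocount (0.1), filter (none or 5 FPKM), scaling (median-ratio or quantile), sample weights, transcript choice (most abundant or protein-coding), length and GC trends, or left out 1 library.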

Additional observations from a re-analysis of the deposited data

Results flagged for a closer look

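Among 43 genes (86 gene and group combinations) 3 values stood far from the other 3 of their group by Dixon's criterion, where chance gives about 1 in 20. Uqcrq was at 18.06 FPKM in Med13 morpholino replicate 1 and at 32.2 to 34.0 FPKM in the other 3. Cox20 was at 2.88 FPKM in scrambled replicate 2 and at 1.597 to 1.697 FPKM in the other 3. Cox8b was at 0.0575 FPKM in scrambled replicate 3 and listed at 0 in the other 3, where any value above 0 would be flagged.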

How the results depend on the processing

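Over 40 named genes and 17 alternatives (661 values), 579 kept their direction and side of the threshold, 48 calls were lost, 17 were gained and 17 values changed sign. The all-gene count of 2010 calls was 1012 with no filter, 1137 at a mean of at least 5 FPKM and 4336 with sample weights, and 975 to 2406 when 1 library was left out. Of the members, 3 higher and 1 lower in the main test, 1 was higher at 5 FPKM (fewer members were tested), 0 were lower with no filter, median-ratio scaling or quantile normalization, 6 were lower with sample weights and 4 with length and GC trends removed. Leaving out 1 library gave 2 to 4 higher and 0 to 2 lower. The cause of these shifts was not tested. The member median of -0.10 ranged from -0.185 to -0.011 over all alternatives. Each shift from the main value was smaller than 0.121, the SD of the member median over single scrambled libraries. That SD is not the spread of a difference of group means and leaves out the Med13 morpholino libraries. Sign changes were all in genes with adjusted p of at least 0.82 in that alternative: Med13 (-0.025 with sample weights), Sdha (0.029 with the most abundant or protein-coding transcripts only) and Uqcr10 (-0.041 with either, -0.048 with length and GC trends removed). With 1 library left out, the ranges were -0.252 to 0.089 for Sdha, -0.067 to 0.15 for Uqcr10, -0.47 to 0.002 for Cox7b2, -0.513 to 0.017 for Cox4i2, -0.313 to 0.022 for Uqcc1, -0.323 to 0.049 for Cox7a2l and -0.001 to 0.101 for Med13. No paired analysis was made, because the groups share no replicate number in the labels, which name no pairs. The library numbers in the titles alternate between the groups, so a pairing of collections is possible but not stated. Depth limits Cox8b, Cox6a2, Cox7b2, Cox6b2, Cox7a1, Cox8c and Atp5sl, whose most abundant model had at most 47 fragments in any library.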
